A study of Rattus norvegicus with 4 samples.

Results

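The Nuclear factor I (NFI) family is a group of 4 transcription factor genes, Nfia, Nfib, Nfic and Nfix, whose listed m6A peaks were compared between CFs (cardiac fibroblasts) with and without added FTO. The peaks were taken by NCBI gene ID, 25492 for Nfia, 29227 for Nfib, 29228 for Nfic and 81524 for Nfix, and all 4 genes were found among the 8534 genes that carry a gene ID and a peak in either list. The family was chosen by its peak numbers in these same lists, with Nfia picked out for having FTO peaks only, so the numbers below are a description and no test was made on them. The cells were primary CFs of neonatal Sprague-Dawley rats taken at most 3 days after birth. In the Vector group, labelled WT, they received the empty plasmid, and in the FTO group, labelled FTO overexpression, the plasmid with rat FTO cDNA, for 48 h in both. FTO is an eraser that takes the methyl mark off m6A in RNA. Each group is 1 m6A-IP library set against 1 input library and gave 1 peak list, so no difference between the lists has a replicate check.

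NFI proteins bind DNA as dimers through an N-terminal domain that is nearly the same in all family members, and their C-terminal parts, which activate or repress transcription, differ more. In vertebrate NFI genes the large second exon encodes most of the DNA-binding domain. The genes are broadly expressed and are known from development, Nfia for glial cells, Nfib for lung and brain, Nfic for tooth roots and Nfix for fetal muscle and brain. m6A is known to be frequent near stop codons and in long internal exons of mRNA.

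The Vector list held 21249 peaks and the FTO list 17796, of which 248 and 213 had no gene ID. The depth of the libraries is unknown, and the lists give the length of a peak but neither its position nor its height. Fto, the transfected gene, had 3 Vector and 9 FTO peaks. Of 10 fibroblast markers, 6 had a peak, with 12 Vector and 11 FTO peaks in all, while no peak was listed for Col1a1, Col3a1, Dcn and Vim. Peaks were also listed for 4 of 6 cardiomyocyte markers (14 Vector and 19 FTO peaks), 3 of 4 macrophage markers (12 and 9), 2 of 4 smooth muscle and pericyte markers (20 and 21) and 1 of 5 endothelial markers (0 and 2). A peak does not give the level of a transcript, and the part of other cells in the NFI peaks was not tested.

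The NFI genes together had 18 Vector peaks and 23 FTO peaks, although the FTO list is the shorter. Nfia had 0 Vector peaks and 5 FTO peaks. Nfib had 5 and 6, and Nfix had 6 and 7. Nfic went the other way, with 7 and 5. Thus 3 of the 4 genes had more peaks in the FTO list and 1 had fewer, where 21.3% of all 8534 genes had more, 37% had as many and 41.7% had fewer. Without Nfia, the other 3 genes had 18 peaks in each list, so the whole family difference of 5 peaks equals the 5 peaks of Nfia. The median difference was 1 peak over the 4 genes and 0 over all genes.

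**Figure D1:**
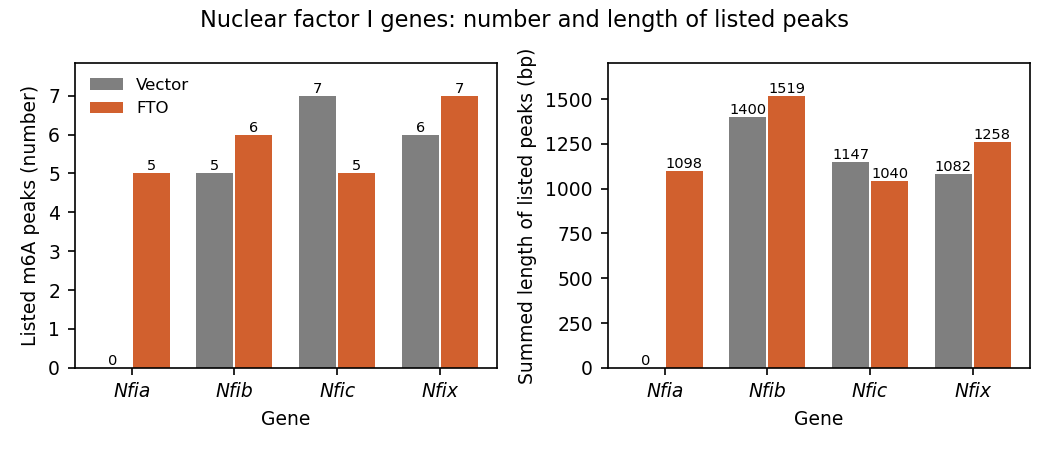
Number of listed m6A peaks (left) and their summed length in bp (right) for each NFI gene, with 1 bar for the Vector list and 1 for the FTO list and the value above each bar. Nfia has no Vector bar, Nfib and Nfix are higher in the FTO list by 1 peak each, and Nfic is lower by 2 peaks; with 1 list per group there are no error bars.

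Summed length followed the numbers. The listed Vector and FTO lengths came to 0 and 1098 bp for Nfia, 1400 and 1519 bp for Nfib, 1147 and 1040 bp for Nfic, and 1082 and 1258 bp for Nfix. FTO length over Vector length was 1.08 for Nfib, 0.907 for Nfic and 1.16 for Nfix. The change outside Nfia was thus small beside the length that both lists shared. The median NFI peak was 125.5 bp long for Vector and 135 bp for FTO, shorter than the medians of 203 and 228 bp over all listed peaks.

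Most NFI peaks had the same length for Vector and FTO. A peak was paired with a peak of the same gene and length in the other list, and 16 pairs were found. Only 2 of the 18 Vector peaks had no FTO partner, which is 11.1% (95% Wilson interval 3.1% to 32.8%), against 42.7% of the 21001 Vector peaks with a gene ID. Of the 23 FTO peaks, 7 had no Vector partner, which is 30.4% (15.6% to 50.9%), against 31.6% of 17583. The Nfia peaks make 5 of these 7, and for Nfib, Nfic and Nfix alone the FTO share was 2 of 18. The Vector share rests on Nfib, Nfic and Nfix alone, since Nfia had no Vector peak. The intervals cover counting error only, peaks of 1 gene are not independent, and an equal length shows neither an equal position nor an equal height. The genes were chosen by their peak numbers, so the intervals do not test a difference from all genes. The median NFI peak was also shorter than that of all listed peaks, and shares at equal peak length were not compared.

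Nfia, the member best known for switching neural progenitors to glial fate, had peaks in the FTO list alone. In transcript order their lengths were 532, 129, 179, 166 and 92 bp, all on 1 Ensembl transcript (ENSRNOT00000004017). A gene with peaks in the FTO list alone was not rare, at 9.5% of all genes, but the median of these genes was 1 FTO peak. Among the 955 genes with 5 or more FTO peaks, 0.419%, or 4 genes with Nfia among them, had no Vector peak. Apart from Nfia, 2 genes shared the numbers 0 and 5: Btbd2 with 960 bp and Kif21a, a kinesin motor gene, with 905 bp of FTO peaks. Whether the Nfia transcript itself was more abundant in the FTO cells was not tested, since the lists hold no transcript level.

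Nfib had all of its Vector peak lengths again in the FTO list. In transcript order the Vector list gave 459, 532, 135, 185 and 89 bp, and the FTO list gave 459, 532, 119, 135, 185 and 89 bp. The lists therefore differed in a single peak of 119 bp, placed between the peaks of 532 and 135 bp. The first and the last peak were listed on another transcript (ENSRNOT00000067435) than those between them (ENSRNOT00000013092). Numbers of 5 and 6 were also found in 34 other genes, and in 21 of these every Vector length came back. The nearest in summed length were Plekhg5, Hdac4, which encodes a histone deacetylase, and Mrps5, which encodes a protein of the mitochondrial ribosome.

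Nfix, which turns on the fetal programme in skeletal muscle, showed the same form of difference. Its Vector peaks were 66, 532, 121, 123, 148 and 92 bp long, and its FTO peaks 66, 532, 121, 123, 176, 148 and 92 bp. The added peak of 176 bp again lay inside the row of peaks, between those of 123 and 148 bp. The peak of 148 bp was on another transcript (ENSRNOT00000091994) than the rest (ENSRNOT00000039354). Another 26 genes had the numbers 6 and 7, and every Vector length came back in 11 of them. Pdgfa, a growth factor ligand, Clasrp and Asap1 were nearest in summed length.

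Set beside the 868 genes with 5 to 7 Vector peaks, Nfib and Nfix belonged to the minority. More FTO than Vector peaks were listed for 13% of these genes, and the median difference was a loss of 1 peak (middle 50% of the genes from -2 to 0). Every Vector length was listed again in the FTO group for 13.1% of them. Both held, as in Nfib and Nfix, for 5.53%. Nfic, with fewer FTO peaks that all have a Vector partner, had the commoner form, found in 34.1% of these genes.

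Nfic, which tooth roots need to grow, was the only member with fewer FTO peaks. The Vector list gave 30, 532, 72, 125, 126, 185 and 77 bp in transcript order, and the FTO list 532, 72, 125, 126 and 185 bp, all on ENSRNOT00000006168. The 2 peaks listed for Vector alone were the outermost ones, 30 bp at the 5′ side and 77 bp at the 3′ side. The lengths of the 5 inner peaks were in both lists. Both missing peaks were under 100 bp, and from 100 bp upwards Nfic had 4 peaks in each list. Numbers of 7 and 5 occurred in 52 other genes, and 30 of these likewise had no FTO length outside their Vector lengths. Sil1, Kif1b and Aimp1 were nearest in summed length.

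The transcript start of Nfic is shown because of its shortest peak, the one of 30 bp. This peak was listed in the Vector group alone and came first in order. In the RefSeq promoter window of Nfic (GRCr8, forward strand), the start base is where the transcript is annotated to begin. An ATG stood at this base, and the 30 bases that begin with it were followed by GT, the letters with which introns begin. Whether this ATG is a start codon, or the run an exon, was not tested. The capitals mark the ATG.

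Nfic: ATGtattcctccccgctctgcctgacccag

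The run has the length of the listed peak and holds no stop codon in its frame. An ATG followed 30 bases on by GT was found on the forward strand of the window in 17% of 33469 RefSeq windows of 300 bases, and with the ATG at the start base in 0.499%. Of the 4 NFI windows, that of Nfic alone held such a run. The 30 bases were set from the Nfic peak and no other member had a peak of that length, so the other windows are no comparison. The match is of letters and length, in another build than the rn6 of the peak lists, and does not place the peak.

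**Figure D2:**
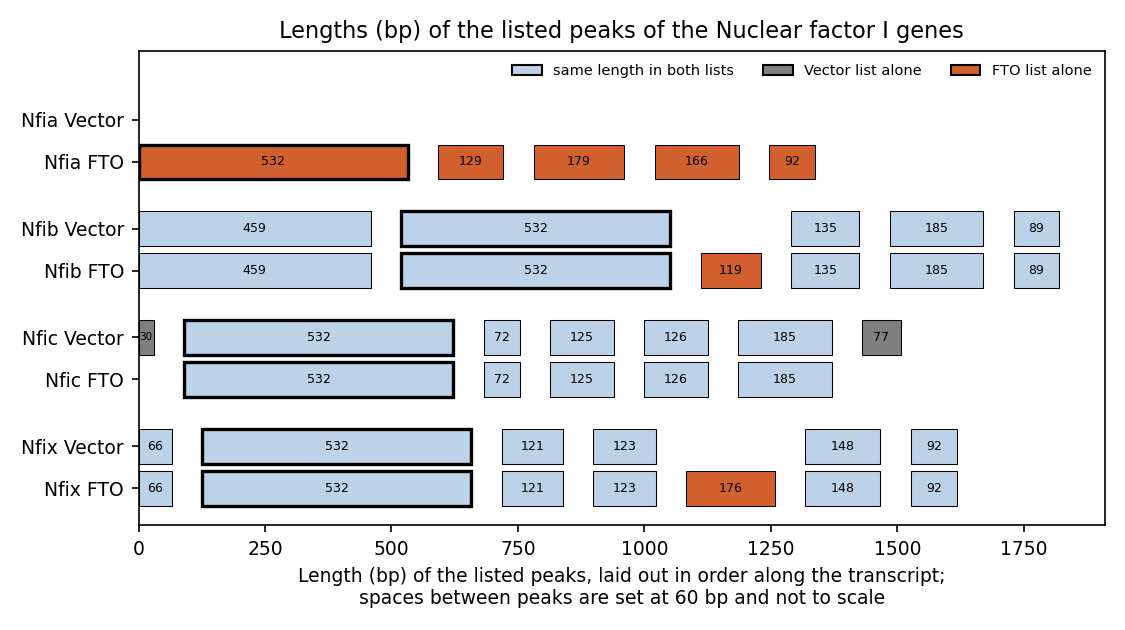
Listed peaks of each NFI gene in the Vector and FTO lists, drawn as boxes whose width is the peak length in bp, in order along the transcript from the 5′ side on the left; spaces between boxes are not to scale. Boxes of equal length stand in 1 column, coloured boxes were listed in 1 group alone, and the heavy outline marks the peak of 532 bp that every gene shares.

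One length ran through the family. A peak of 532 bp was listed for Nfib, Nfic and Nfix in both groups and for Nfia in the FTO group, and it was the longest peak of each gene. In the Vector list 8 genes had a peak of exactly 532 bp, and 3 of them were NFI genes, the others being Ak6, Apcdd1, Cit, Irgq and Tbx20. In the FTO list it was again 8 genes, 4 of them NFI genes, beside Cit, Irgq, Pde7b and Tbx20. The 8 genes are 0.104% of all Vector genes and 0.112% of all FTO genes. The number of 8 genes was ordinary for lengths in this range, since the lengths within 30 bp had a median of 7 genes in each list. Whether the peak of 532 bp lies on the exon that encodes the DNA-binding domain was not determined, as no positions were used.

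**Figure D3:**
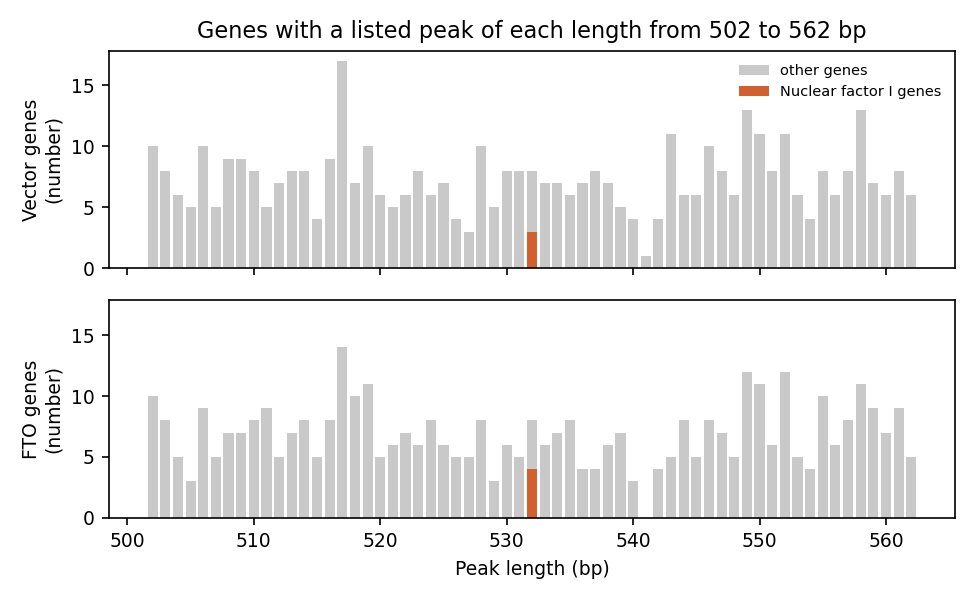
Number of genes with a listed peak of each length from 502 to 562 bp (x axis, 1 bar per bp) in the Vector list (top) and the FTO list (bottom), with NFI genes in colour. The bar at 532 bp holds 8 genes in both lists, 3 (top) and 4 (bottom) of them NFI genes, and is not taller than many bars around it.

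The peak of 532 bp stood at or near the 5′ side of the row. Read along the transcript, it came first in Nfia and in the FTO list of Nfic, and it came second, after a single other peak, in Nfib, in Nfix and in the Vector list of Nfic. Among the remaining 19 lengths of the family, 2 occurred in more than 1 member. A length of 185 bp was listed for Nfib and Nfic in both groups, and 92 bp for Nfix in both groups and for Nfia in the FTO group. The peak of 92 bp was the last in the row in Nfia and in Nfix. These shorter lengths are common, with 86 genes at 185 bp and 67 genes at 92 bp in the Vector list.

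The numbers in the peak names help to see what the lists leave out. The numbers run along the chromosomes: the next listed peak was on a gene of the same chromosome for 99.4% of the Vector and 99.3% of the FTO peaks. Many numbers are skipped, namely 64.3% of those up to the highest for Vector and 65.8% for FTO. What the unlisted numbers stand for is not given in the sources used here. Where the Vector list lacked the 119 bp peak of Nfib, 5 unlisted numbers lay between the peaks on its sides, and 1 lay where it lacked the 176 bp peak of Nfix. In the FTO list 1 unlisted number lay next to the 5′ side of the Nfic row and 1 next to its 3′ side. At each of these 4 places there was thus at least 1 unlisted number. Between neighbouring peaks that both lists hold there was one at 6 of 22 places, counted in each list, and most of the 6 were in Nfix. These counts are not alike, since the Nfic places lie at the ends of its row and the 22 places lie within a row. The FTO list, which holds the 119 bp peak of Nfib, also had 2 unlisted numbers between that peak and the one of 532 bp. For Nfia the nearest listed genes in the Vector group were Cyp2j10 and Patj, with 17 unlisted numbers between them. In the FTO group they were Jun and Tm2d1, with 19 unlisted numbers between them beside the 5 listed Nfia peaks. Unlisted numbers were thus found around Nfia in both lists. Whether any of these numbers belongs to an NFI peak was not tested.

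**Figure D4:**
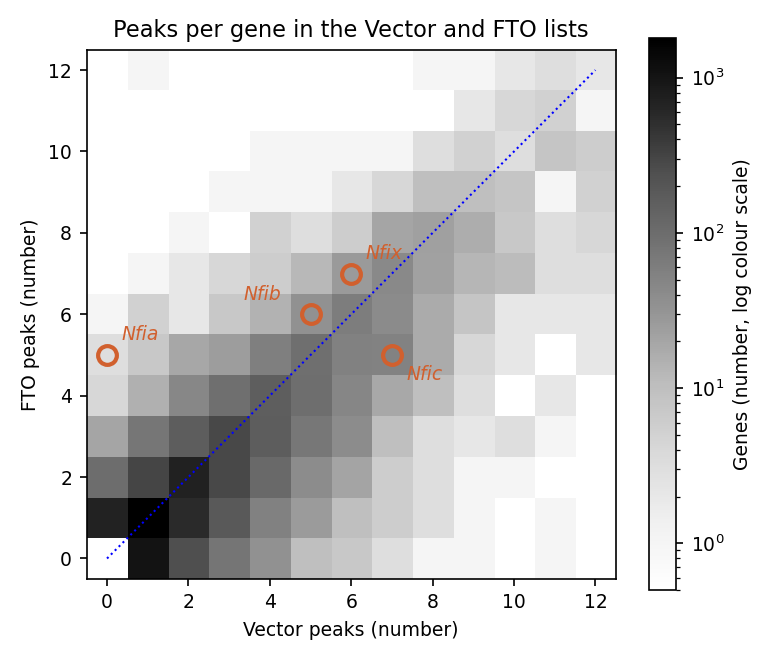
Vector peaks (x axis) against FTO peaks (y axis) per gene for genes with at most 12 peaks in each list, with the number of genes as grey level on a log scale, the dotted line at equal numbers and the NFI genes as circles. Nfia lies on the left edge at 5 FTO peaks, Nfib and Nfix lie just above the line and Nfic below it.

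Other families of sequence-specific transcription factors were set beside the NFI genes. Each of the 4 NFI genes had a peak, against 3 of 4 Tead, 3 of 4 Mef2, 3 of 4 Tcf/Lef, 3 of 3 Runx, 12 of 17 Klf, 5 of 19 Sox and 17 of 45 Fox genes. The NFI genes were chosen by their peaks in these lists, so their count is no comparison with the other families. With 18 Vector peaks on 3 genes, the NFI genes had more than the whole Klf family with 17, and the 17 Fox genes had 52. FTO minus Vector peaks came to 5 for NFI, 4 for Klf, 2 for Mef2, 1 for Runx and for Sox, -1 for Tead, -4 for Tcf/Lef and -8 for Fox. Over all 8534 genes the difference was -3418 peaks. No difference in a single gene of these 7 families was as high as the 5 peaks of Nfia, the highest being 2 in Mef2c, Runx2, Klf12, Sox5 and Foxk2. Nfia was picked out for having FTO peaks only, so this contrast rests on the value that chose it. Foxp2, a repressor known from brain development, was the mirror image of Nfia, with 5 Vector and 0 FTO peaks. Runx2, the osteoblast factor, had 0 and 2. A length in all members with peaks was found in none of the 7 families, where at most 2 genes of a family shared a length. The families differ in size and in the number of peaks, and the differences between them were not tested.

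**Figure D5:**
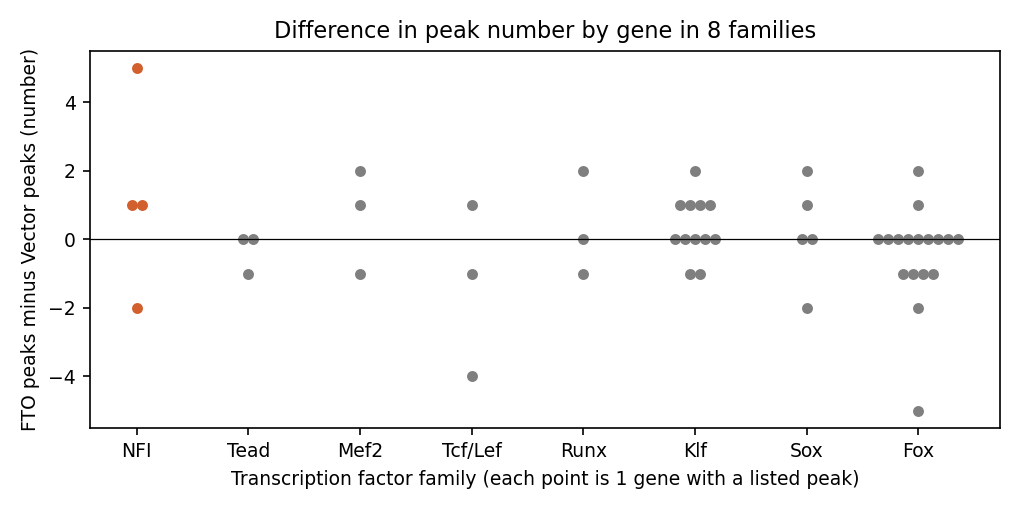
FTO peaks minus Vector peaks (y axis) for every gene with a listed peak in the NFI family and 7 other transcription factor families, 1 point per gene. The NFI points stand at 5, 1, 1 and -2, and no gene of the other families lies above 2. The point at 5 is Nfia, which was picked out for having FTO peaks only.

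Genes known as regulators, partners or targets of NFI proteins were counted in the same way. Of 24 such genes, 9 had a peak, with 36 Vector and 27 FTO peaks. FTO peaks were more for 2 genes (22.2%), as many for 2 (22.2%) and fewer for 5 (55.6%), where the shares over all genes were 21.3%, 37% and 41.7%. Smad3, which carries the TGF-beta signal to the nucleus, had 4 Vector and 5 FTO peaks, and Sox9, which switches on Nfia in the developing spinal cord, had 1 and 2. The TGF-beta ligand gene Tgfb1 had 4 and 2 and the receptor gene Tgfbr2 had 5 and 4. Ezh2, the histone methyltransferase gene that Nfib represses, had 6 and 2. Notch1 had 5 in each list, Hes1 had 1 in each, Klf4 had 2 and 1, and Myh7, a slow myosin gene that Nfix holds down in fetal muscle, had 8 and 5. The median difference of these 9 genes was -1 peak, against 0 over all genes. It was also -1 over the 868 genes with 5 to 7 Vector peaks. Tgfbr2, Notch1, Ezh2 and Myh7 had 5 or more Vector peaks, and the 9 genes were not set beside genes with equal Vector numbers.

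The genes beside each member were looked at for a change shared by the locus. Of the 6 nearest protein-coding genes of Nfia, Tm2d1 had 0 Vector and 1 FTO peak and Patj had 1 and 3, and the other 4 had no peak. Both neighbours with peaks thus had more in the FTO list, though neither had as many as Nfia. Beside Nfib the direction was opposite, with Frem1 at 4 and 0 and Mpdz at 1 and 0, while Nfib itself had 5 and 6. Beside Nfic, Ncln had 3 and 4 and Dohh 1 and 1. Beside Nfix, Nacc1 had 2 and 4, Gadd45gip1 2 and 2, and Lyl1 1 and 1. No NFI peak was added when peaks without a gene ID were assigned by transcript.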

How the data were processed

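m6A-seq of neonatal rat CFs gave 4 libraries, 1 m6A-IP and 1 input for Vector and for FTO. Per the labels, the submitters' processing notes name cutadapt 1.9.3, HISAT2 2.0.4 and the build rn6. The authors deposited 1 peak list per group with a MACS peak name, a peak length in bp that is not normalized, an Ensembl transcript and mostly an NCBI gene ID. The caller's version, settings and threshold are not given in the sources used here, and the depth is unknown.

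The members and all gene lists were chosen with earlier results of these data known. Symbols, gene order and strands came from RefSeq tables of GRCr8, which matched 7489 of 7723 Vector and 6920 of 7145 FTO gene IDs. Peaks were counted per gene ID and paired 1 to 1 by gene and length, a step tested on simulated data. Peak numbers were read in the order of the neighbouring genes and turned by the RefSeq strand of the member to give transcript order. Genes named are the members, genes with the same peak numbers and the nearest summed lengths (at most 3 per member), neighbours (3 on either side) and listed genes with a peak. The other genes with a 532 bp peak, the genes flanking the gap at Nfia, and the markers without a peak were named after their values were seen. Since each group is a single library pair, no test was run. Scripts ran under Python 3.11.15 with pandas 2.3.3, scipy 1.17.1, numpy 2.4.6 and, for plots, matplotlib 3.10.9.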

Additional observations from a re-analysis of the deposited data

How the results depend on the processing

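Of 50 values recomputed under alternatives, 33 stayed within 1.5 times the value given (shares: within their 95% interval), 17 moved and 0 changed sign. With peaks of at least 100 bp, the FTO minus Vector difference of Nfic came to 0 peaks and 0 bp. With peaks of at least 200 bp, Nfia kept 1 FTO peak, of 532 bp, and the differences of Nfib, Nfic and Nfix were 0 peaks and 0 bp. The family then had 4 Vector and 5 FTO peaks, 0% of its Vector peaks lacked a partner, and 10.7% of all genes had FTO peaks only. By construction these limits leave out the short peaks in which the lists differ. With FTO numbers scaled up by 1.194 to the size of the Vector list, the differences were 2.16 for Nfib, -1.03 for Nfic and 2.36 for Nfix. Assigning peaks by transcript, counting equal lengths of 1 gene as 1 peak, and pairing by transcript, within 10% of the length or with any peak of the gene moved none of the values. No paired analysis was possible because there is 1 list per group. Depth, which is unknown, limits all differences in peak number.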
